A study of Mus musculus with 18 samples.

Results

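Sall3, Slit3, Megf6, Kif26a and Il2rb are 5 genes, of 18838 listed in the deposited tables, that were chosen by their normalized counts: near 0 in wild-type (WT) intestinal epithelium and high in the libraries labelled Mtgr1-/-. The same values are described here, so their genotype differences are a description and carry no test. The choice held for 4 of the 5 genes at every time point. Il2rb went against it in freshly isolated WT crypts, where it was present in all 3 libraries. The study sequenced mRNA of duodenal crypts from 3 WT and 3 Mtgr1-/- mice at isolation (day 0) and of the enteroids, 3D cultures of intestinal epithelium, grown from those crypts for 24 h (day 1) and 72 h (day 3), which gives 18 libraries, 3 for each genotype at each of 3 time points. The mice were young adult, age-matched littermates of both sexes, and carried the null alleles in every cell of the body, so cells other than epithelium lacked the gene too. Xist was at 9047 to 14831 normalized counts in WT mouse 3 and mouse 1 labelled Mtgr1-/-, and at most 19.6 in the others. The Y-linked gene Ddx3y was at most 1.88 in those mice and 857 to 1354 in the others, so only those mice read as female. Each library was 1 mouse, and the p-values below measure the spread between 3 mice per group.

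MTGR1, encoded by Cbfa2t2, is a corepressor of the MTG (ETO) family: it does not bind DNA by itself but links DNA-binding factors, E proteins among them, to histone deacetylases. Corepressors keep sets of genes at a low level in a tissue. The 5 genes have no shared pathway. Sall3 is a Spalt family zinc finger transcription factor that recruits the NuRD deacetylase complex, Slit3 is a secreted ligand of Robo receptors known from axon guidance, Megf6 is a secreted protein with many EGF-like repeats, Kif26a is an atypical kinesin that binds microtubules and GRB2 and restrains GDNF-RET signalling in enteric neurons, and Il2rb is the beta chain of the IL-2 and IL-15 receptors of T and natural killer (NK) cells.

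The targeted gene was not called lower in the libraries labelled Mtgr1-/-. Cbfa2t2 was at 614, 523 and 595 normalized counts in the WT crypts and at 697, 466 and 534 in the crypts labelled Mtgr1-/-. Day 1 gave 788, 710.2 and 757 for WT mice and 1160, 1008 and 789 for those labelled Mtgr1-/-, and day 3 gave 869, 774 and 883 against 892, 976 and 766. The log2 differences were -0.05, 0.37 and 0.06, with adjusted p = 0.917, 0.0557 and 0.686 (limma, Benjamini-Hochberg). The groups overlapped in crypts and at day 3. At day 1 all 3 libraries labelled Mtgr1-/- were above the WT ones, the closest by less than 1 normalized count, and the difference passed by DESeq2 (adjusted p = 0.0319), after quantile normalization (0.0471), with the replicate number as a block (0.0399) and without mouse 3 labelled Mtgr1-/- (0.53, adjusted p = 0.00765, limma where not named). The gene-level values of Cbfa2t2 do not show which exons were read, so this gene does not check the labels, and the libraries are called by their labels throughout. The 16 libraries whose depth could be read back from the values held 22035316 to 28621990 reads, with a median of 26258539. The summed normalized count of 8 epithelial marker genes was 122150 to 346357 in the 18 libraries and none of them was at 0 in a group. Of 6 genes listed as duodenal markers, Hephl1 alone was at 0 throughout a group, the crypts labelled Mtgr1-/-. Hephl1 was near 0 everywhere, at 0.958, 0.990 and 1.15 in the WT crypts and at most 3.37 in any library.

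For 3 of the 5 genes RefSeq (GRCm38.p6) gave a promoter, taken here as the 240 bases from 250 to 11 before the transcript start; Sall3 and Il2rb were not matched. The windows of Megf6 and Kif26a are printed because they stand next to transcripts that were nearly absent in WT, with capitals marking CANNTG, the core letters of the E-box that E proteins bind.
Megf6: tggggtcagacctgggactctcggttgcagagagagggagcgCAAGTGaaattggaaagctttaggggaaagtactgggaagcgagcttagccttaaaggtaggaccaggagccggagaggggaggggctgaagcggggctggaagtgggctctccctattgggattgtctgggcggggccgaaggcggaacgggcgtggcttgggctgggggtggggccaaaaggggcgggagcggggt
Kif26a: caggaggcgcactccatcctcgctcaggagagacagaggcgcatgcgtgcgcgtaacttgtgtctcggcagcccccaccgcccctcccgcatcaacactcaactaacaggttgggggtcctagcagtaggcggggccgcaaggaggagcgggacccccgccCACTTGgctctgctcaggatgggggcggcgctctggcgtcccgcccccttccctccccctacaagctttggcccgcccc
The Megf6 window is chr4:154170463-154170702 and the Kif26a window chr12:112145958-112146197, both on the plus strand. Both held 1 CANNTG, and the Slit3 window, which overlaps an annotated exon and is not printed, held 0. Neither CAGCTG nor CAGGTG, forms of the same motif searched on both strands, was in any of the 3 windows. Of all 32851 promoter windows of this length, 65.0% held CANNTG, 12.4% CAGCTG and 16.6% CAGGTG. All 3 were rich in G and C: 78.8% in Slit3, 68.8% in Kif26a and 63.3% in Megf6, against a median of 52.1%. They held 33, 18 and 12 CpG dinucleotides in that order, at the 96.7, 80.2 and 68.0 percentiles of all promoters, whose median was 5.

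The genes lie on 5 chromosomes of the GRCm38 genome (GENCODE M21 annotation). Sall3 (ENSMUSG00000024565.9) is at chr18:80966376-80986771 on the minus strand, Slit3 (ENSMUSG00000056427.10) at chr11:35121224-35708507 on the plus strand, Megf6 (ENSMUSG00000057751.14) at chr4:154170730-154275713 on the plus strand, Kif26a (ENSMUSG00000021294.7) at chr12:112146208-112181747 on the plus strand and Il2rb (ENSMUSG00000068227.9) at chr15:78479256-78495271 on the minus strand. All are protein coding. Their longest transcripts, 7.079, 5.228, 6.851, 6.918 and 4.194 kb in that order, were above the median of 3.36 kb over the 12145 genes tested at all time points. Slit3 contains 4 annotated small or pseudogene entries and Megf6 contains 1, none of which had a row in the tables.

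Sall3, the transcription factor, had the widest contrast. In crypts it was at 0, 0 and 1.15 normalized counts in the WT libraries and at 1063, 1034 and 846 in the libraries labelled Mtgr1-/-. Day 1 gave 0, 1.04 and 0 against 714, 676 and 569, and day 3 gave 0 in all 3 WT libraries against 918, 564 and 1095. A normalized count is a read count divided by the library's size factor, here close to 1 read, so 7 of the 9 WT libraries held no Sall3 read and the remaining 2 held 1 each. The level in the libraries labelled Mtgr1-/- was 2876 times the WT level in crypts (95% interval 516 to 113640, on 1 WT read) and 2121 times at day 1 (380 to 83806, on 1 WT read). At day 3, with no WT read, it was at least 923-fold higher, set against a floor of 3 reads over the WT group. These intervals and floors, and those given for other genes below, cover counting error only and not the spread between mice. In bulk RNA, fewer cells with a transcript and less of it per cell cannot be told apart. The log2 differences on normalized count + 1 were 9.56, 9.003 and 9.69.

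Slit3, the secreted ligand, was nearly as clear. The WT crypts held 0.958, 0.990 and 1.15 normalized counts and the crypts labelled Mtgr1-/- held 1028, 1311 and 606. In culture, WT held 0.915, 0 and 0.838 at day 1 against 667, 419 and 624, and 0, 0 and 1.94 at day 3 against 626, 363 and 721. No WT library held more than 2 Slit3 reads and 3 of the 9 held none. By reads the ratio was 964 in crypts (330 to 4679, on 3 WT reads), 910 at day 1 (251 to 7521, on 2 WT reads) and 918 at day 3 (254 to 7584, on 2 WT reads), and the log2 differences were 8.85, 8.52 and 8.58.

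Megf6, the EGF-repeat protein, was low rather than absent in WT. The WT crypts held 0.958, 1.98 and 5.76 normalized counts, against 1194, 1155 and 492 in the crypts labelled Mtgr1-/-. At day 1 WT stood at 4.57, 9.37 and 1.68 and the libraries labelled Mtgr1-/- at 515, 457 and 555. At day 3 WT stood at 10.8, 22.3 and 19.4 against 834, 392 and 701. All 3 WT mice were higher at day 3 than in crypts, by 2.59, 2.96 and 1.59 on the log2 scale. The ratio by reads went from 350 in crypts (177 to 811) to 103 at day 1 (63.0 to 180) and 36.2 at day 3 (27.8 to 48.0), with log2 differences of 8.01, 6.57 and 5.11.

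Kif26a, the atypical kinesin, was the least abundant of the 5 in the libraries labelled Mtgr1-/-. It was at 0, 1.98 and 1.15 normalized counts in WT crypts and at 495, 582 and 234 in crypts labelled Mtgr1-/-. Day 1 gave 10.97, 1.04 and 2.51 in WT against 297, 204 and 235. Day 3 gave 0.896, 1.78 and 1.94 in WT against 369, 205 and 294. WT mouse 1 at day 1 held most of the WT reads of that time point. The ratios by reads were 430 in crypts (147 to 2089, on 3 WT reads), 49.2 at day 1 (30.1 to 86.5) and 187 at day 3 (79.7 to 577), and the log2 differences were 7.78, 5.79 and 6.82.

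Il2rb, the cytokine receptor chain, differed from the other 4 in crypts. The WT crypts held 132, 145 and 2036 normalized counts and the crypts labelled Mtgr1-/- held 1811, 1715 and 898, so the groups overlapped, with WT mouse 3 above all others. In culture they separated: day 1 gave 9.15, 13.5 and 71.2 in WT against 781, 451 and 859, and day 3 gave 0.896, 3.56 and 0 against 774, 394 and 715. The ratio by reads was 2.12 in crypts (2.01 to 2.23), 20.53 at day 1 (16.9 to 25.2) and 404 at day 3 (173 to 1245). These intervals cover counting error only and not the spread between mice, which in the WT crypts ran from 132 to 2036. The log2 differences were 2.05, 4.93 and 8.20. Without WT mouse 3 the crypt difference was 3.34, and by DESeq2, which ran without WT mouse 2, it was 0.42.

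**Figure D1:**
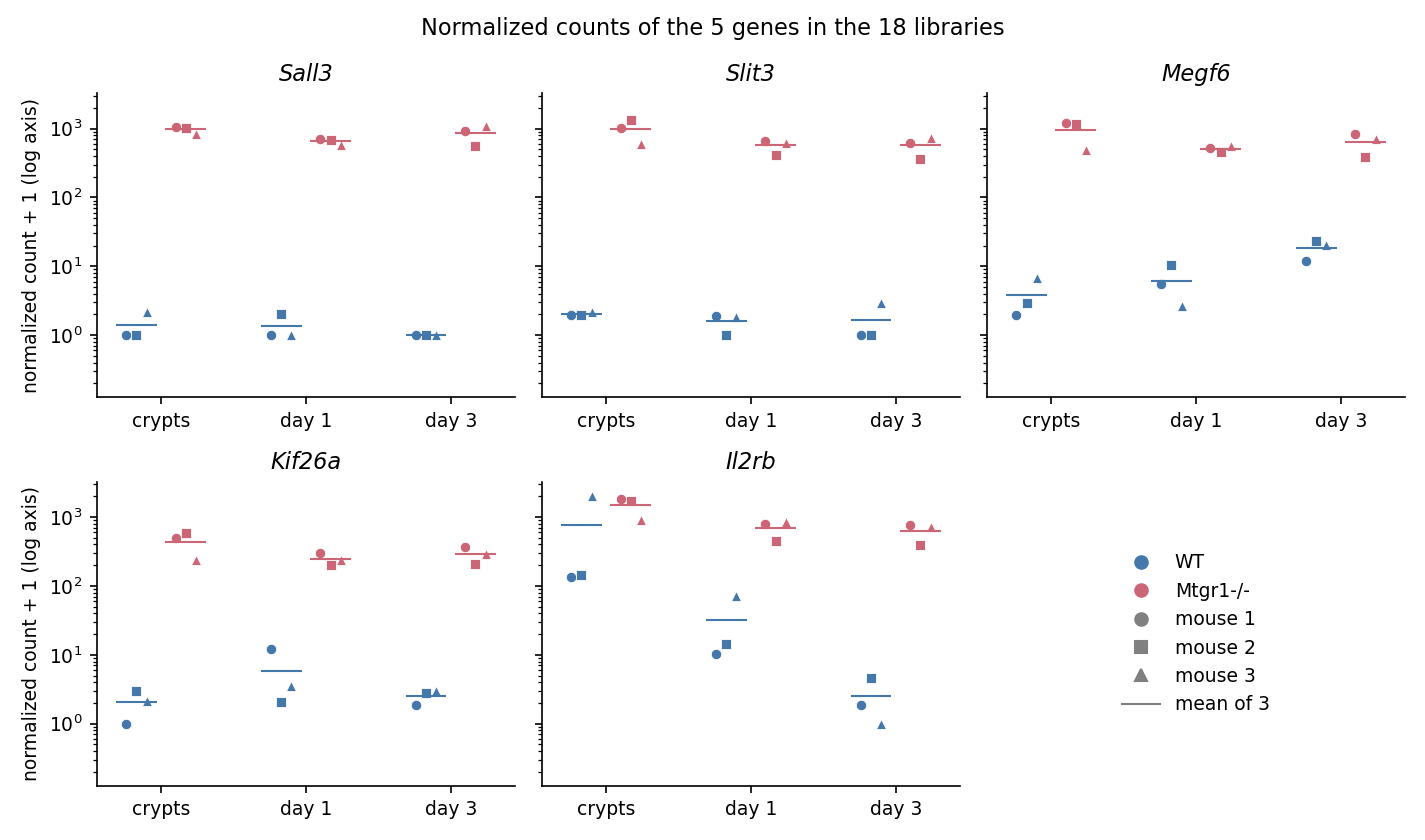
Normalized count + 1 (log axis) of Sall3, Slit3, Megf6, Kif26a and Il2rb in the 18 libraries, by time point on the horizontal axis. Blue points are WT and red points Mtgr1-/-, the marker shape gives the mouse number and the short line the mean of 3. Sall3 and Slit3 lie at the floor in all 9 WT libraries, WT Megf6 climbs to between 10.8 and 22.3 at day 3, and WT Il2rb falls from between 132 and 2036 in crypts to at most 3.56 at day 3.

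Every library labelled Mtgr1-/- was above every WT library for 4 of the 5 genes in crypts, where 12% of the 12980 genes tested had that order, and for 5 of 5 in culture, where 34.2% at day 1 and 34.6% at day 3 had it. Over all 18 libraries 4 of the 5 kept that order, against 1.77% of 16414 genes, while 2.96% of genes had every WT library above every library labelled Mtgr1-/-. All 5 passed the filter of a mean of at least 10 at each time point, although their WT means were under 10 except for Il2rb in crypts and at day 1 and Megf6 at day 3. Nothing is read from these shares, because the contrast chose the genes. No difference changed sign in any of the 17 alternatives run for it, which the choice of the genes by this contrast made likely beforehand.

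The gap between genotypes was measured as the log2 of the lowest library labelled Mtgr1-/- over the highest WT library, each plus 1. The day 0, day 1 and day 3 tables were normalized separately, which sets levels across them only roughly. Among 16414 genes in all 3 tables, Sall3 had the largest gap, 8.04, and Slit3 the next, 6.95. Kif26a was at rank 5 with 4.10 and Megf6 at rank 6 with 4.08. Between them stood Wnt4, which encodes a Wnt ligand (5.35), and Tfap2a, which encodes the AP-2 alpha transcription factor of neural crest and epidermis (5.28). Il2rb was at rank 12257 with -2.37 and at rank 27 with 1.44 once the WT crypt library of mouse 3 was left out.

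Wnt4 and Tfap2a had the same off and on pattern as 4 of the 5 genes. Wnt4 was at 0.958 to 13.9 normalized counts over the 9 WT libraries and at 606 to 2336 over the 9 labelled Mtgr1-/-. Tfap2a was at 0.990 to 6.402 against 287 to 595. With a ceiling of 25 in every WT library and a floor of 100 in every library labelled Mtgr1-/-, 6 genes passed: these 2, Sall3, Slit3, Megf6 and Kif26a. The reverse pattern was met by 9 genes, among them Sst, Ghrl, Gip and Tac1, all of which encode hormones or peptides of enteroendocrine cells, with Scg2, Efna3, Dach1, Ptprn2 and Rpl34-ps1; these limits and the names of the reverse group were taken after the values were seen. The next genes by gap were Rps6ka2, an RSK kinase (3.61), Gdpd3, a lysophospholipase D (3.40), Bhlhe23, a bHLH transcription factor (3.20), Tlr5, the flagellin receptor (3.06), Erc2, a presynaptic scaffold (2.39), Smcp, a sperm mitochondrial protein (2.25), Fam124a (2.16) and Adgra1, an adhesion receptor (1.99).

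**Figure D2:**
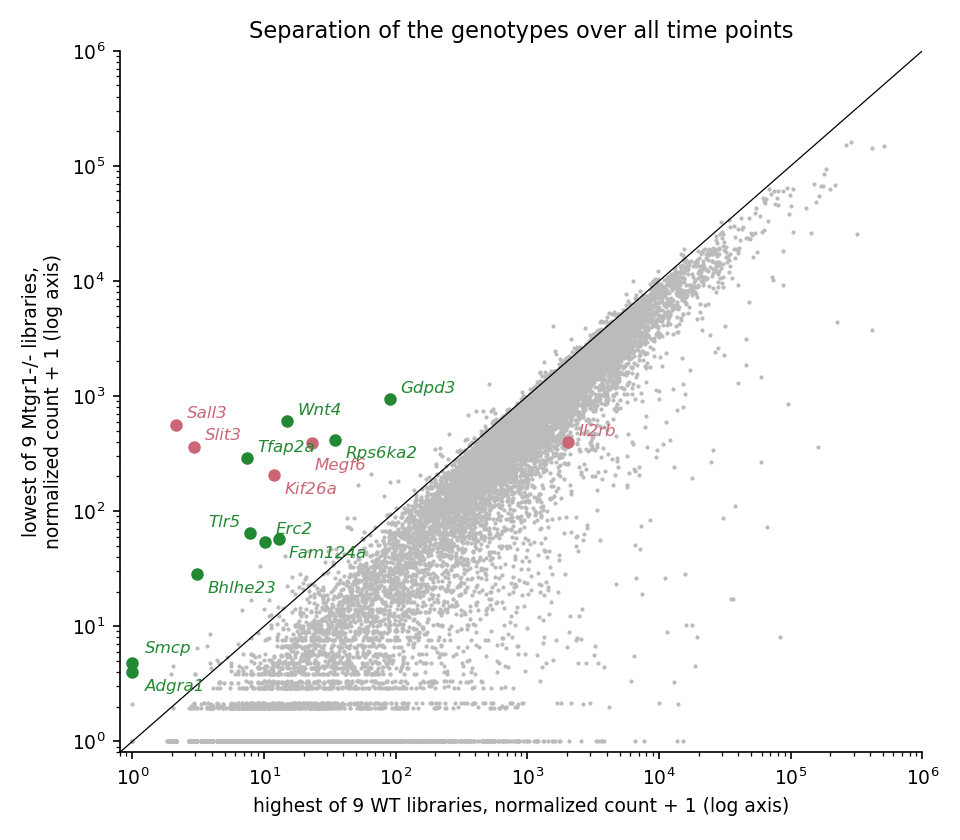
Highest normalized count + 1 over the 9 WT libraries against the lowest over the 9 Mtgr1-/- libraries, both on log axes, for 16414 genes. Red points are the 5 genes, green points the 10 other genes with the largest gap, and genes above the line have every Mtgr1-/- library above every WT library. Sall3 lies farthest above the line and Il2rb lies below it.

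The genes whose pattern across the 18 libraries was most like that of Sall3, by Pearson r of log2(normalized count + 1) over 12145 genes and leaving the 5 genes aside, were Tfap2a (r = 0.991), Gdpd3 (0.990) and Tlr5 (0.987). For Slit3 the closest genes were Tfap2a (0.984), Rps6ka2 (0.982) and Tlr5 (0.981), and for Kif26a they were Tfap2a (0.979), Wnt4 (0.966) and Tlr5 (0.961). Megf6 was closest to Tlr5 (0.968), Itsn1, an endocytic scaffold (0.966), and Pik3c2g, a lipid kinase (0.958). Il2rb had other partners: Kif9, an axonemal kinesin (0.964), Pip4k2a, a lipid kinase (0.949), and Ifi27, an interferon-induced gene (0.947). These values describe 18 libraries that share mice, genotypes and depth, and most of each r is the genotype difference itself.

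How the 5 genes varied among the libraries labelled Mtgr1-/- was not used to choose them. In crypts mouse 3 was lowest for all 5 and at day 3 mouse 2 was lowest for all 5. At day 1 mouse 2 was lowest for 4 and mouse 3 for Sall3. Sall3 was the steadiest in crypts, with a coefficient of variation over 3 mice of 12.0%, while Slit3, Megf6, Kif26a and Il2rb were at 36.1%, 41.7%, 41.5% and 34.0%. At day 1 the range was 9.66% (Megf6) to 31.0% (Il2rb), and at day 3 it was 28.4% (Kif26a) to 35.3% (Megf6). Genes with a mean of at least 100 in the same libraries had medians of 10.98%, 10.95% and 10.4%. Over the 9 libraries the pairwise Pearson r on the log2 scale ran from 0.67 (Sall3 with Il2rb) to 0.96 (Megf6 with Kif26a), a description over libraries that share 3 mice and 3 time points.

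Per kilobase of the longest transcript, the levels in crypts labelled Mtgr1-/- were 352 normalized counts for Il2rb, 188 for Slit3, 139 for Sall3, 138 for Megf6 and 63.2 for Kif26a. Slit3, Sall3 and Megf6 did not differ beyond their spread, which was 67.9, 16.7 and 57.6 (SD, n = 3), and the ranges of Il2rb (214 to 432) and Slit3 (116 to 251) and of Megf6 (71.8 to 174) and Kif26a (33.8 to 84.2) overlapped. These levels stood at percentiles 67.7, 51.9, 44.8, 44.7 and 30.4 of the genes tested in crypts, so the genes reached the middle of the range and not its top. At day 1 the levels were 166, 109, 92.2, 74.3 and 35.5 in the same order, at percentiles 45.5, 37.0, 34.0, 30.4 and 21.0, and at day 3 they were 150, 109, 121, 93.7 and 41.8. As RPM, the reads of a gene scaled to the library's read total, the mean of the libraries labelled Mtgr1-/- went from crypts to day 1 to day 3 through 39.7, 22.0 and 31.5 for Sall3, 40.1, 19.0 and 20.9 for Slit3, 38.8, 17.1 and 23.7 for Megf6, 17.9, 8.20 and 10.6 for Kif26a, and 60.2, 23.1 and 23.1 for Il2rb. On that scale all 5 were lower at day 1 than in crypts in every one of the 3 mice, while in normalized counts Slit3, Megf6 and Kif26a were slightly higher at day 1 in mouse 3, by 0.043, 0.17 and 0.0071 on the log2 scale.

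How far the genotype difference itself moved with time is given for the 5 genes as a description, with no test, because the values that chose them enter it at every time point. Over all 12145 genes tested with limma, 41.4% changed between crypts and day 1, 31.6% between crypts and day 3 and 0.0329% between day 1 and day 3 (adjusted p below 0.05). The difference of Il2rb was 6.15 larger on the log2 scale at day 3 than in crypts, with a range of 4.02 to 7.66 over 12 alternatives and 4.34 without WT mouse 3. WT Il2rb changed by -6.13, -4.995 and -10.99 on the log2 scale in the 3 WT mice over that interval, against -1.23, -2.12 and -0.33 in the mice labelled Mtgr1-/-. The 2 sets of mice did not overlap.

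Megf6 went the other way. From crypts to day 3 its difference changed by -2.90 on the log2 scale, with a range of -3.42 to -1.74 over 12 alternatives. All 3 WT mice had more Megf6 at day 3, while the mice labelled Mtgr1-/- changed by -0.52, -1.56 and 0.51. The differences of Sall3, Slit3 and Kif26a changed by 0.13, -0.27 and -0.96 over the same interval. From crypts to day 1 the changes were -1.99 for Kif26a, 2.89 for Il2rb and -1.45 for Megf6, and from day 1 to day 3 that of Il2rb was 3.26.

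Because Il2rb is a lymphocyte gene, it was set beside 14 genes of T and NK cells. Their summed normalized count was 3150, 2712 and 27870 in the WT crypts and 1539, 734 and 3156 in the crypts labelled Mtgr1-/-. At day 1 the sums were 142, 131 and 620 in WT against 39.6, 49.3 and 625, and at day 3, with 13 of the genes in the table, they were 69.0, 60.6 and 54.2 against 53.5, 25.8 and 316. The WT crypt library of mouse 3, the one with the high Il2rb, thus had by far the highest sum.

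Il2rb, which is not among the 14, was low against their sum in WT and high against it in the libraries labelled Mtgr1-/-. Its level was 4.20 to 7.31% of their sum in WT crypts, 6.45 to 11.5% at day 1 and 0 to 5.88% at day 3. In the libraries labelled Mtgr1-/- it was 28.5 to 234% in crypts, 137 to 1971% at day 1 and 227 to 1523% at day 3, above the WT range at each time point. The counts that chose Il2rb enter these ratios, so they are a description and carry no test. Cd3e, a chain of the T cell receptor complex, was at 143, 137 and 1163 normalized counts in the WT crypts and at 61.2, 27.6 and 107 in those labelled Mtgr1-/-. In WT at day 3 the T and NK genes Cd2 and Nkg7 were at 0 in all 3 libraries. Lck, the highest of the list there, was at 49.3, 29.4 and 26.1, against sums of 69.0, 60.6 and 54.2. Ptprc was next, at 10.8, 14.3 and 14.5. Of the 14 genes, 0 of the 14 tested in crypts were called by limma (3 at an unadjusted p under 0.05, 0 by edgeR and 5 by DESeq2), 0 of 8 at day 1 and 0 of 2 at day 3 (0 at an unadjusted p under 0.05, by edgeR and by DESeq2 at both). The summed level of 9 mesenchymal genes in crypts was 11.9 to 135 in WT and 27.6 to 93.5 in the libraries labelled Mtgr1-/-. That of 6 myeloid genes was 750 to 2168 in WT and 486 to 913 in the libraries labelled Mtgr1-/-. For 5 B and plasma cell genes it was 1066 to 3403 and 124 to 685 in the same order. The sums in culture follow in that order too. The myeloid sum was 299 to 328 against 282 to 610 at day 1, and 333 to 340 against 371 to 1140 at day 3. For 5 mesenchymal genes it was 10.1 to 21.8 against 27.5 to 59.5, then 25.2 to 28.5 against 21.9 to 39.8. The 5 B and plasma cell genes gave 21.8 to 44.8 against 5.83 to 84.9 at day 1. At day 3, 4 of them gave 26.1 to 31.4 against 7.96 to 43.8. Whether such cells held the 5 transcripts was not tested.

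**Figure D3:**
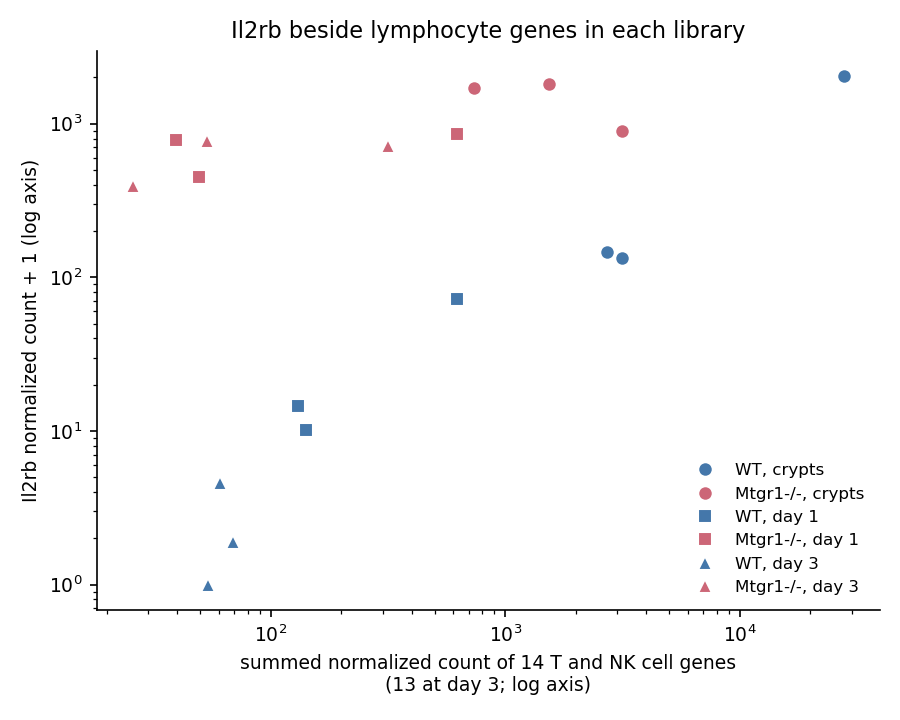
Il2rb normalized count + 1 against the summed normalized count of 14 T and NK cell genes (13 at day 3), both on log axes, with 1 point per library. Blue is WT and red Mtgr1-/-; circles are crypts, squares day 1 and triangles day 3. In WT, Il2rb falls with the lymphocyte genes, to at most 11.5% of their sum, while the 9 Mtgr1-/- libraries lie between 394 and 1811 at sums from 25.8 to 3156.

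The receptor partners and ligands of IL2RB were read next. Il2rg, the common gamma chain that IL2RB pairs with, was at 56.5, 55.4 and 622 normalized counts in WT crypts against 53.7, 25.7 and 83.3, and at day 3 it was at 0.896, 2.67 and 1.94 against 0, 1.99 and 16.8. Il2ra, the alpha chain of the IL-2 receptor, was at most 1.12 in any day 3 library. The alpha chain of the IL-15 receptor, Il15ra, was present in both genotypes at every time point, with 199, 167 and 174 in WT and 198, 219 and 253 in the libraries labelled Mtgr1-/- at day 3 (log2 difference 0.30, adjusted p = 0.101, and 0.0432 after quantile normalization, limma).

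Il15, the ligand itself, was higher in the enteroids labelled Mtgr1-/- than in WT enteroids. Here and below, a gene rose or fell when it was called higher or lower in the libraries labelled Mtgr1-/- than in WT at the same time point. At day 1 it was at 83.2, 117 and 75.4 normalized counts in WT and at 266, 199 and 323 in the libraries labelled Mtgr1-/- (log2 fold change 1.505, SE 0.24, adjusted p = 0.00143, limma), and at day 3 the log2 fold change was 0.89 (adjusted p = 0.00409, limma). Il4ra, the alpha chain of the IL-4 receptor, rose by 0.91 at day 1 and 1.37 at day 3 (adjusted p = 0.00544 and 2.58e-05, limma). With these, 2 of 5 tested genes of the IL-2, IL-15 and gamma chain list rose at day 1 and 2 of 3 at day 3, where 30% and 29.9% of all tested genes rose and 28.9% and 29.1% fell. Of 12 JAK-STAT5 signalling genes, 4 rose and 2 fell at day 1 and 6 rose and 2 fell at day 3, with median log2 differences of 0.44 and 0.48 against -0.01 and 0.00 over all genes. Scaled as RPM, the counts were 2 and 4 at day 1 and 6 and 5 at day 3. On that scale 2200 of 12619 genes rose and 5614 fell at day 1, and 2749 of 12784 rose and 5090 fell at day 3. Stat3 rose by 0.90 and 1.05, and Bcl2, the antiapoptotic gene downstream of this receptor in lymphocytes, fell, with log2 fold changes of -2.21 and -2.16 (adjusted p from 3.38e-05 to 0.000425 for both genes, limma).

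The relatives of Slit3 went the opposite way to Slit3. Slit2, another Robo ligand, was at 105, 88.1 and 71.4 normalized counts in WT crypts and at 21.7, 27.6 and 26.4 in those labelled Mtgr1-/-. At day 1 it was at 346, 244 and 249 against 35.0, 38.9 and 25.4, and at day 3 at 363, 329 and 413 against 41.0, 46.7 and 52.8. It fell at all 3 time points, with log2 fold changes of -1.76, -3.04 and -2.95 (adjusted p = 0.0157, 0.000109 and 1.08e-05, limma), and the crypt call was lost without WT mouse 1, WT mouse 2 or mouse 1 labelled Mtgr1-/- (adjusted p = 0.106, 0.0859 and 0.0591, limma), after quantile normalization (-1.34, adjusted p = 0.126, limma) and by edgeR (adjusted p = 0.0916). Slit1, the remaining Slit gene, fell by 2.71 at day 3 (adjusted p = 0.0114, limma), from 14.3, 23.2 and 15.5 normalized counts to 5.69, 0 and 2.25. The receptor genes Robo1 and Robo3 were at most 6.59 in any library of either genotype, and Robo2 and Robo4 had no values at any time point.

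Among 11 tested co-receptors and effectors of Slit-Robo signalling at day 1, 3 rose and 1 fell, and among 13 at day 3, 3 rose and 3 fell, where 30% and 28.9% of all tested genes did at day 1 and 29.9% and 29.1% at day 3. Scaled as RPM, the counts were 0 and 4 at day 1 and 3 and 5 at day 3. On that scale 2200 of 12619 genes rose and 5614 fell at day 1, and 2749 of 12784 rose and 5090 fell at day 3. Flrt3, which associates with Robo receptors, rose by 0.61 at day 3 (adjusted p = 0.000653, limma).

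**Figure D4:**
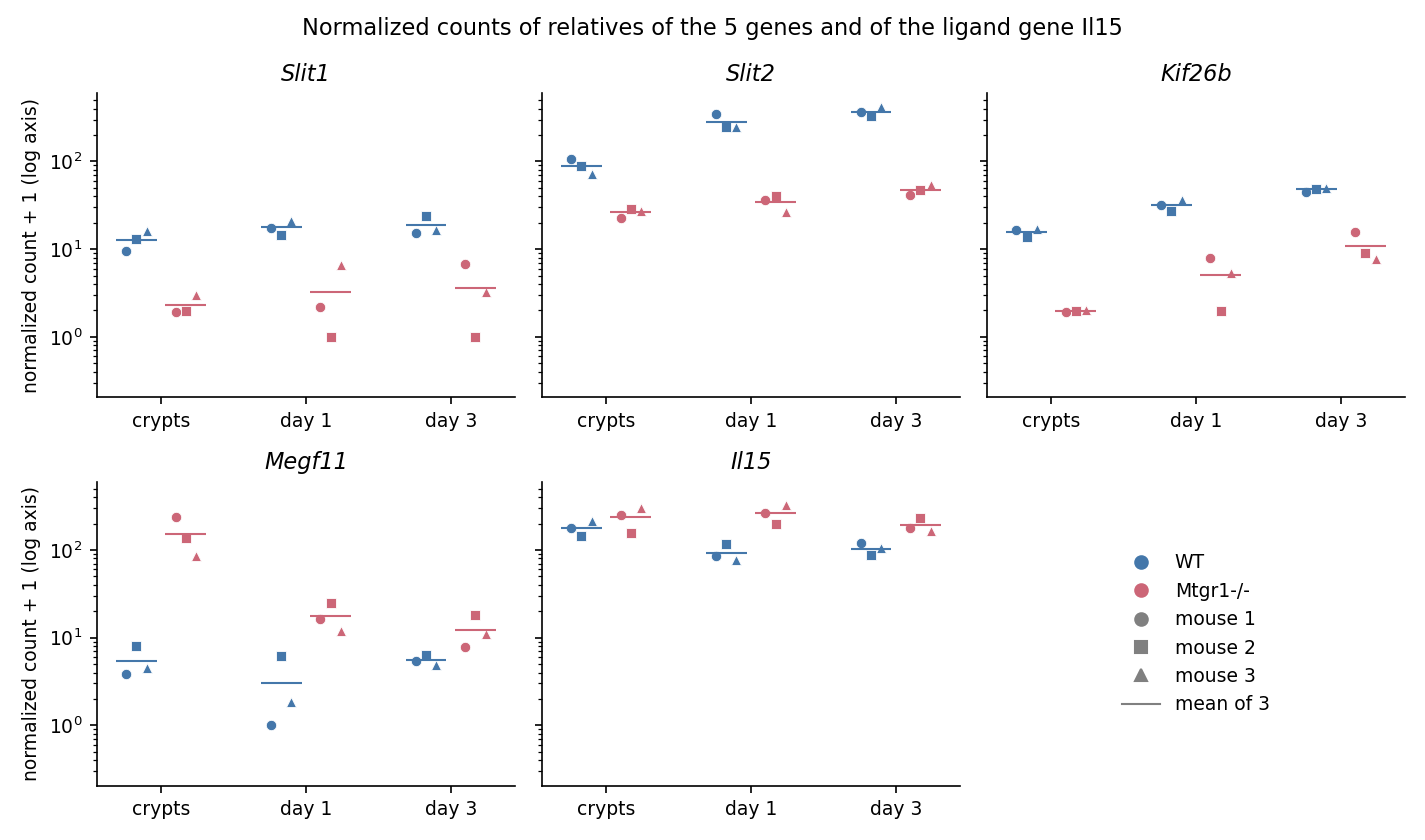
Normalized count + 1 (log axis) of Slit1, Slit2, Kif26b, Megf11 and Il15 by time point, drawn as for the 5 genes: blue WT, red Mtgr1-/-, marker shape for the mouse, line for the mean of 3. Slit1, Slit2 and Kif26b are lower in every Mtgr1-/- library than in every WT library of the same time point, and Megf11 is far higher in Mtgr1-/- crypts.

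Of the other Spalt genes, Sall2 was at 17.9, 14.3 and 20.3 normalized counts in WT at day 3 and at 7.96, 5.97 and 20.2 in the libraries labelled Mtgr1-/- (log2 difference -0.74, adjusted p = 0.206, and 0.0317 without mouse 3 labelled Mtgr1-/-, limma), and Sall4 was at most 2.67 in any day 1 or day 3 library. Of the 13 genes of the NuRD complex, the SALL3 partner, 2 rose and 8 fell at day 1 and 2 rose and 5 fell at day 3, with median log2 differences of -0.30 and -0.19, or 0 and 11 at day 1 and 1 and 10 at day 3 when scaled as RPM. Without RPM scaling, 28.9% of all genes fell at day 1 and 29.1% at day 3. Scaled as RPM, 5614 of 12619 genes fell at day 1 and 5090 of 12784 at day 3. Hdac2, a deacetylase of the complex, fell, with log2 fold changes of -0.91 and -0.78 (adjusted p = 0.000308 and 0.000584, limma), and Chd3, a remodelling subunit, rose by 0.68 at day 3 (adjusted p = 0.00285, limma).

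Megf11, a cell surface relative of Megf6, was the EGF-repeat gene with the largest rise in crypts, with 2.88, 6.93 and 3.45 normalized counts in WT and 238, 137 and 83.3 in the libraries labelled Mtgr1-/- (log2 fold change 4.77, SE 0.50, adjusted p = 0.00423, limma). Unlike Megf6 it did not stay high: at day 3 it was at 4.48, 5.34 and 3.87 in WT and at 6.83, 16.9 and 10.1 in the libraries labelled Mtgr1-/-. Of the EGF-repeat genes tested, 2 of 6 rose and 1 fell at day 1, and 4 of 7 rose and 3 fell at day 3, or 1 and 2 at day 1 and 3 and 3 at day 3 when scaled as RPM. Without RPM scaling, 30% of all genes rose and 28.9% fell at day 1, and 29.9% and 29.1% did at day 3. Scaled as RPM, 2200 of 12619 genes rose and 5614 fell at day 1, and 2749 of 12784 rose and 5090 fell at day 3. Stab1, a scavenger receptor, was at 2.69, 0 and 2.90 in WT at day 3 and at 19.3, 25.9 and 41.5 in the libraries labelled Mtgr1-/- (log2 fold change 3.55, adjusted p = 0.00197, limma). Pear1, a platelet receptor, rose by 2.85 at day 3 (adjusted p = 0.000436, limma).

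Kif26b, the other kinesin-11 gene and nearest relative of Kif26a, fell. In crypts it was at 15.3, 12.9 and 16.1 normalized counts in WT and at 0.942, 0.951 and 1.02 in the libraries labelled Mtgr1-/-, 15.2 times lower by reads (4.86 to 76.5, on 3 reads) and below the filter for testing. At day 1 it fell by 2.85 (31.1, 26.0 and 35.2 against 6.997, 0.948 and 4.41, adjusted p = 0.00389, limma) and at day 3 by 2.22 (43.9, 48.1 and 49.4 against 14.8, 7.95 and 6.74, adjusted p = 0.000971, limma). Over the kinesin list, 9 of 31 tested genes rose and 16 fell at day 1 and 9 of 32 rose and 17 fell at day 3, or 3 and 19 and then 6 and 18 when scaled as RPM. Without RPM scaling, 30% of all genes rose and 28.9% fell at day 1, and 29.9% and 29.1% did at day 3. Scaled as RPM, 2200 of 12619 genes rose and 5614 fell at day 1, and 2749 of 12784 rose and 5090 fell at day 3. The mitotic kinesins Kif11 and Kif15 fell at day 3, with log2 fold changes of -1.07 and -1.13 (adjusted p = 0.00072 and 0.000339, limma), and Kifc3, which acts at cell junctions, rose by 1.39 (adjusted p = 7.06e-05, limma).

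In the GDNF-RET pathway that KIF26A restrains in enteric neurons, 1 of 9 tested genes rose and 2 fell at day 1 and again at day 3. Without RPM scaling, 30% and 28.9% of all genes did at day 1 and 29.9% and 29.1% at day 3. Scaled as RPM, the counts were 1 and 3 at both. On that scale 2200 of 12619 genes rose and 5614 fell at day 1, and 2749 of 12784 rose and 5090 fell at day 3. Gfra3, the artemin receptor chain, was at 61.3, 40.6 and 67.9 normalized counts in WT crypts against 0.942, 0 and 1.02, a ratio by reads of 86.9 in favour of WT (23.7 to 724, on 2 reads). At day 1 it was at 99.7, 95.8 and 123 in WT and at 0 in all 3 libraries labelled Mtgr1-/-, at least 101-fold lower. It fell by 5.16 in crypts, where the call was lost without WT mouse 1 (adjusted p = 0.00473 and 0.0557, limma), and by 4.70 at day 3 (adjusted p = 7.21e-05, limma). Nrtn, the ligand neurturin, fell by 2.38 and Src rose by 0.50 at day 3 (adjusted p = 0.000887 and 0.00103, limma).

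Among genes of the MTG corepressor complex, 2 of 16 rose and 7 fell at day 1 and 1 rose and 9 fell at day 3, or 2 and 13 and then 0 and 12 when scaled as RPM. Without RPM scaling, 30% of all genes rose and 28.9% fell at day 1, and 29.9% and 29.1% did at day 3. Scaled as RPM, 2200 of 12619 genes rose and 5614 fell at day 1, and 2749 of 12784 rose and 5090 fell at day 3. Runx1t1, the family member MTG8, was at 22.0, 18.7 and 27.7 normalized counts in WT at day 1 and at 0 in all 3 libraries labelled Mtgr1-/-, at least 21.7-fold lower. Cbfa2t3, the remaining member MTG16, fell at day 1 and day 3, with log2 fold changes of -0.95 and -1.03 (adjusted p = 0.00634 and 0.000839, limma), as did the E protein gene Tcf3, with -0.85 and -0.63 (adjusted p = 0.002 and 0.0061, limma). Cbfa2t3 was called lower in crypts too. Sin3b and Ncor1 of the same list rose by 0.64 and 0.60 at day 1 (adjusted p = 0.00331 and 0.00227, limma). Of 18 Polycomb genes, members of complexes that silence developmental genes, 2 rose and 9 fell at day 1 and 2 rose and 10 fell at day 3, or 1 and 12 and then 1 and 13 when scaled as RPM. The shares of all genes given for the MTG list apply here too. Kdm2b, which brings such a complex to CpG-rich promoters, fell, with log2 fold changes of -1.37 and -1.03 (adjusted p = 0.000281 and 0.00158, limma). Rybp, another gene of the Polycomb list, rose by 0.62 and 0.50 (adjusted p = 0.00432 and 0.00161, limma) and was called higher in crypts too.

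In crypts few genes of these 11 lists moved. Of 126 tested, 2 rose and 4 fell (20 at an unadjusted p under 0.05, 2 by edgeR and 10 by DESeq2), where 1.58% of all tested genes rose and 3.15% fell, against 27 and 47 of 122 at day 1, where the shares of all genes were 30% and 28.9%, and 30 and 53 of 126 at day 3, where they were 29.9% and 29.1%. The median log2 difference over the lists was -0.06, -0.16 and -0.17 at the 3 time points, against 0.01, -0.01 and 0.00 over all genes tested. Scaled as RPM, 12 rose and 69 fell at day 1 and 23 and 71 at day 3. With that scaling the median log2 difference of all genes was -0.33 at day 1 and -0.20 at day 3, and over all genes 2200 rose and 5614 fell at day 1 in place of 3776 and 3637, and 2749 and 5090 at day 3 in place of 3826 and 3719. The log2 differences of the 5 genes, which were chosen by this contrast, kept their direction with it. Examples are 4.62 for Il2rb at day 1 and 4.92 for Megf6 at day 3.

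The genes next to the 5 on their chromosomes were tested as well, 2 on each side. Of these 20 genes, 2 rose in crypts, 6 rose and 5 fell at day 1 and 9 rose and 5 fell at day 3, or 4 and 8 at day 1 and 6 and 6 at day 3 when scaled as RPM. Without RPM scaling, 1.58% of all genes rose in crypts, 30% rose and 28.9% fell at day 1, and 29.9% and 29.1% did at day 3. Scaled as RPM, 2200 of 12619 genes rose and 5614 fell at day 1, and 2749 of 12784 rose and 5090 fell at day 3. The 2 that rose in crypts flank Il2rb. Tmprss6, a membrane serine protease that regulates hepcidin in the liver, lies at chr15:78439667-78468634, 10.6 kb from Il2rb, and C1qtnf6, a secreted C1q and TNF-related protein, lies at chr15:78523346-78531416, 28.1 kb away on the other side.

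Tmprss6, like Il2rb, was highest among the WT crypts in mouse 3, but its groups did not overlap at any time point. It was at 1.92, 3.96 and 67.9 normalized counts in the WT crypts and at 678, 1030.1 and 353 in those labelled Mtgr1-/-. At day 1 it was at 0, 0 and 0.838 in WT against 74.6, 138 and 71.7, and at day 3 at 0, 0 and 0.968 against 205, 82.5 and 181. It rose by 5.97 in crypts, 6.22 at day 1 and 6.87 at day 3 on the log2 scale (SE 1.14, 0.48 and 0.48; adjusted p = 0.0340, 0.00011 and 2.63e-05, limma). By reads the level was 317 times WT at day 1 (56.4 to 12557, on 1 WT read) and 500 times at day 3 (89.2 to 19787, on 1 WT read). The crypt call was lost with the replicate number as a block (adjusted p = 0.0580, limma), without the trend (0.0700, limma), by edgeR (4.32, adjusted p = 0.156) and without any 1 mouse other than WT mouse 3 (adjusted p = 0.0836 to 0.117, limma).

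C1qtnf6 was at 22.0, 10.9 and 44.9 normalized counts in the WT crypts and at 235, 234 and 108 in those labelled Mtgr1-/-. It rose by 2.97 in crypts, 2.02 at day 1 and 2.89 at day 3 (adjusted p = 0.0304, 0.00138 and 0.000407, limma). Its crypt call was lost with the block (adjusted p = 0.0655, limma), without the trend (0.0558, limma), by edgeR (2.51, adjusted p = 0.1004) and without WT mouse 1 or 2 or mouse 1 or 2 labelled Mtgr1-/- (adjusted p = 0.0797 to 0.112, limma). The outer neighbours of Il2rb, Mpst and Rac2, did not pass at any time point in the main setting. Mpst passed at day 3 with the block (adjusted p = 0.0335, limma). It also passed scaled as RPM (-0.59, adjusted p = 0.0120, limma) and without WT mouse 1 (-0.55, adjusted p = 0.0138, limma). For the other 4 genes the neighbours had smaller log2 differences, from -1.07 for Npm1 at day 1 to 1.69 for Inf2 in crypts, which was not called (adjusted p = 0.233, limma). Many of these neighbours lay farther off, from 2.77 kb for Arhgef16 to 407 kb for Inf2 and 1958 kb for Npm1. The gene nearest Megf6 on its downstream side, Arhgef16, rose by 0.63 and 0.58 at day 1 and day 3 (adjusted p = 0.00192 and 0.000832, limma), and Aspg, next to Kif26a, rose by 1.59 at day 3 (adjusted p = 0.00338, limma).

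**Figure D5:**
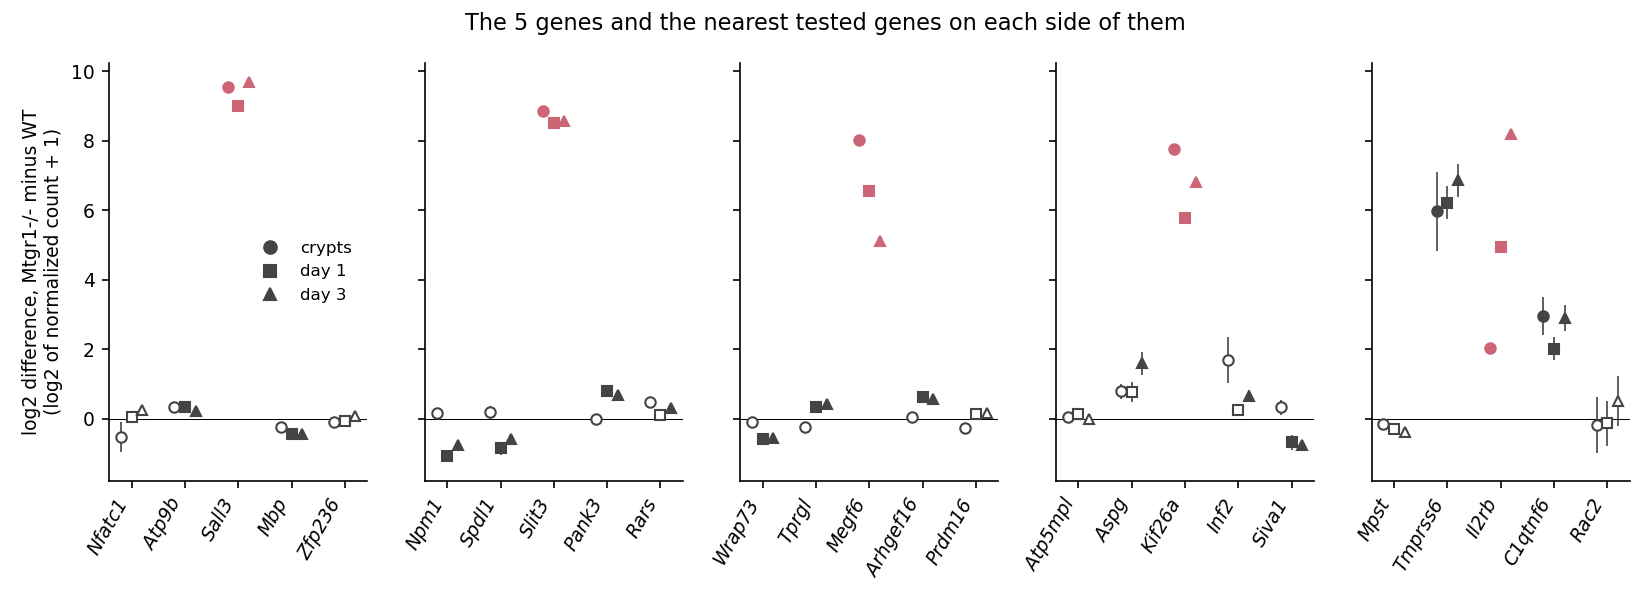
Log2 difference, Mtgr1-/- minus WT, of each of the 5 genes (red, no test) and of the nearest tested genes on each side in chromosome order (dark), with SE bars and 1 marker shape per time point; filled markers had an adjusted p below 0.05 (limma). Tmprss6 and C1qtnf6 beside Il2rb rise with it, by 2.02 to 6.87, while the neighbours of Sall3, Slit3, Megf6 and Kif26a stay between -1.07 and 1.69. The neighbours of those genes lie 2.77 to 1958 kb away.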

How the data were processed

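Per the study's methods, polyadenylated RNA was sequenced from a strand-marking kit, reads were trimmed with fastp 0.20.0, quantified per transcript with Salmon 1.3.0 against GENCODE mouse transcripts and summed per gene, and the authors deposited, for each time point, DESeq2 (1.26.0) normalized counts as a signal (reads divided by a size factor). The deposited tables also hold the authors' own comparisons (fold changes and p-values), which were not used.

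The values were tested as log2(normalized count + 1) with limma 3.58.1 (R 4.3.3; with a mean-variance trend), genes with a mean of at least 10, 3 libraries per group and Benjamini-Hochberg adjustment, threshold 0.05. Changes between time points came from 1 fit of all 18 libraries in which the mouse was a random term, and no p is given from it for the 5 genes. Whole reads were recovered in 16 libraries (100% of values within 0.1 of a whole read), and edgeR 4.0.16 and DESeq2 1.42.0 were run on them; WT crypt library 2 and day 3 library 2 labelled Mtgr1-/- were left out there. With 3 against 3 the smallest exact permutation p is 0.1. Scripts were tested on simulated data.

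The 5 genes and all lists were chosen with earlier results of these data known. Named list genes are up to 3 per list, direction and time point with the largest called change, and of these mostly those whose call held with each library left out; also named are the 2 nearest tested genes on each side, the 10 genes with the largest gap and the 3 most alike. Same-numbered mice of the 2 genotypes deviated together at day 1 (r = 0.116, 0.231 and 0.216), less evenly in crypts (0.0764, 0.274 and 0.346) and not at day 3 (-0.00666, -0.00226 and -0.0156). The alternatives were other pseudocounts (0.1 and 8), filters, scalings, tests, the block and leaving out each mouse; RPM and the gap without 1 library were added after seeing the data.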

Additional observations from a re-analysis of the deposited data

How the results depend on the processing

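The 15 genotype differences of the 5 genes kept their direction under all 17 alternatives, which their choice by this contrast made likely beforehand. Their size followed the pseudocount, from 6.88 to 12.04 on the log2 scale for Sall3 in crypts. Genes called in crypts numbered 614, against 1193 by DESeq2, 183 by edgeR and 176 to 608 with 1 library left out; at day 1 they numbered 7413 (6136 to 7874) and at day 3 7545 (6096 to 7695). Changes called from crypts to day 1 numbered 5025 (3333 to 5549 without 1 mouse), from crypts to day 3 3834 (1657 to 3712) and from day 1 to day 3 4 (0 to 879; 16 with pseudocount 8, 20 after quantile normalization and 9 with the replicate block). With the replicate block 562, 8027 and 7289 genes were called in crypts, at day 1 and at day 3; among the results named it changed only the calls of Cbfa2t2 at day 1, Tmprss6 and C1qtnf6 in crypts and Mpst at day 3 (-0.39, adjusted p = 0.0335, limma). Small differences turned sign. The change of Sall3 from crypts to day 3 was -0.17 with pseudocount 8, -0.045 after quantile normalization and -0.24 to 0.45 without 1 mouse. Slit3 changed from crypts to day 1 by 0.57 (pseudocount 0.1) and -0.72 to 0.13 (without 1 mouse), from crypts to day 3 by 1.28 (pseudocount 0.1) and -0.78 to 0.27 (without 1 mouse), and from day 1 to day 3 by -0.034 (pseudocount 8), -0.063 (quantile normalization) and -0.37 to 0.44 (without 1 mouse). Cbfa2t2 differed by -0.21 to 0.082 in crypts without 1 mouse, and at day 3 by -0.019 (DESeq2), -0.026 (edgeR), -0.15 (RPM) and -0.024 to 0.15 without 1 mouse. The cause was not tested. Leaving out 1 library leaves a group with 2, and WT levels of a few reads set how wide the ratios' intervals are.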
